A study of Mus musculus with 9 samples.

Results

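Differentiated C2C12 myotubes (MT) were compared with growing C2C12 myoblasts (MB) on 2 of the 9 two-colour arrays of the series, chosen by their titles, which name the growing myoblasts as the control and the differentiated cells as the test sample. C2C12 is an established mouse muscle precursor line. MT had been kept for 3 days in differentiation medium, and MB were growing asynchronously in medium with a high serum content. The other 7 arrays set suspension-arrested G0 myoblasts (G0 MB) against MB on 3 arrays, against MT on 2 and against arrested fibroblasts on 2, and entered the estimate of the spread of each clone, with their own ratios given beside those of the called clones. No transgene or drug was named for either cell state. The methods tell of a biological replicate and a dye reversal within each pair, but the labels do not say whether the 2 arrays hold RNA of separate cultures. The p-values measure the spread of a clone between arrays of the same comparison, which may be technical. That spread was taken over all 9 arrays and drawn toward the spread of all clones, so it is not that of the 2 arrays alone. A culture of MT also holds cells that have not fused, and a larger share of one cell type cannot be told apart from more RNA per cell in these bulk samples.

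When mitogens are withdrawn, myoblasts leave the cell cycle for good, align and fuse into multinucleated fibres. Transcription factors of the MyoD family, paired with E proteins, bind the E-box and act with MEF2 factors to switch on the genes of the contractile apparatus. Id proteins bind E proteins without contacting DNA, and so hold this program back in dividing cells.

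Each array carried 31200 spots, on which 15247 cDNA clones were mostly printed in duplicate. Spots above the detection limit numbered 11678 on array 1 and 14060 on array 2, which is 38.3% and 46.1% of the clone spots, and covered 6321 and 7459 clones. Duplicate spots correlated at r = 0.872 on array 1 and 0.935 on array 2. The detection limit, the highest intensity among spots that the files mark as undetected, was 4813 in the Cy3 and 5349 in the Cy5 channel of array 1, against 2131 and 2349 on array 2. The limits of array 2 were thus lower in number, in arbitrary units that were not put on 1 scale across the arrays.

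The direction of the comparison is not settled by the labels. Both arrays are labelled with MT in Cy5 and MB in Cy3, but across the 5502 clones measured on both, the log2 ratios of array 1 and array 2 ran against each other, with Pearson r = -0.49 and Spearman rho = -0.40. These clones share 2 hybridizations and are no independent replicates, so the correlation is a description. The values the authors deposited in the series table carry a sign that turns array 1, so that both arrays run as MT over MB in the order of the titles. Both readings are given here, the labelled dyes and the title order, and the title order was used for the description of single genes. With array 2 turned in place of array 1, every title-order ratio of MT over MB below would take the opposite sign and keep its size. By the labelled dyes, array 1 carries the opposite of the value given for it and array 2 the same value.

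**Figure D1:**
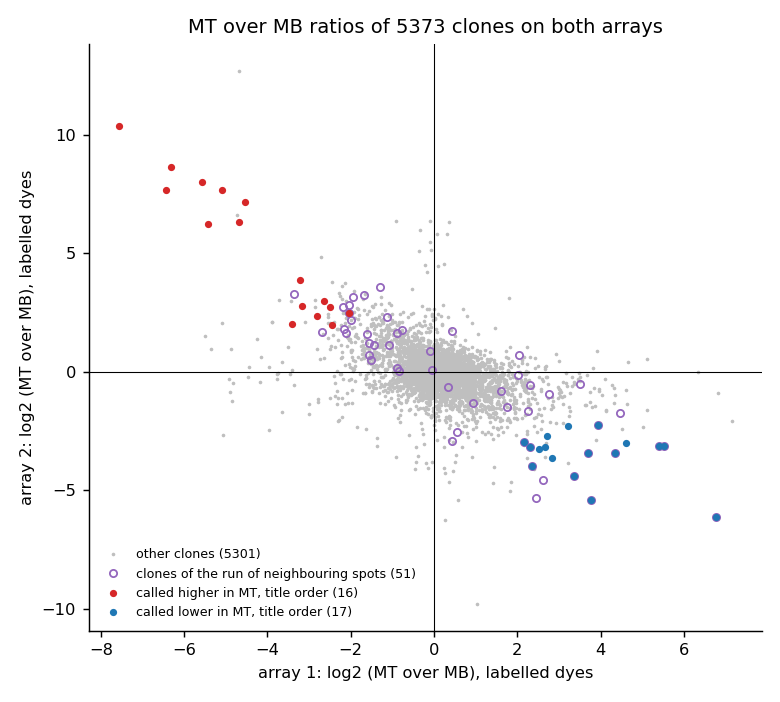
Log2 ratio of MT over MB by the labelled dyes on array 1 (x axis) and array 2 (y axis), 1 point per clone, for the 5373 clones tested. Clones called in the title order lie in the upper left (16 higher in MT) and lower right (17 lower in MT), and open circles mark 51 clones printed in 1 run of neighbouring spots.

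A clone was called when its mean ratio passed 1.6-fold and its limma p, adjusted over the 5373 clones tested, was under 0.04. By the labelled dyes, 0 clones were called (0% in either direction), while 34 (0.633%) were higher and 36 (0.67%) lower in MT at an unadjusted p under 0.05, and SAM over single spots called 0 higher and 1 lower. In the title order, 16 clones were called higher and 17 lower in MT, which is 0.298% and 0.316% of those tested and 0.614% for both directions, with 270 (5.03%) higher and 374 (6.96%) lower at an unadjusted p under 0.05. These counts moved widely with the method, to 521 higher and 679 lower by SAM over single spots, 72 and 89 with scaled arrays, and 4 and 1 in a fit to the 2 arrays alone. SAM over single spots takes duplicate spots of 1 array as replicates, so its counts do not rest on independent replicates. Without the test, 347 clones (6.46%) read past 1.6-fold higher and 423 (7.87%) past 1.6-fold lower in MT on both arrays of the title order, and 105 (1.95%) passed that fold in opposite directions. The 2 arrays lay on the same side of 0 for 3207 clones in the title order (59.7%) and for 2166 by the labelled dyes (40.3%). Over the 3100 named genes, each given by its brightest clone, the median log2 ratio in the title order was -0.02, with 193 genes (6.23%) past 1.6-fold higher and 237 (7.65%) past 1.6-fold lower on both arrays. On both arrays, 805 of these genes lay above 0 and 1019 below it. These shares and counts are the background for the gene lists below.

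Contractile genes had the largest median among the pathway lists in the title order. Of 48 sarcomere genes listed, 8 were on the array and 6 were measured, with a median log2 ratio of 1.54 (1.25 on array 1 and 1.52 on array 2). Past 1.6-fold on both arrays, 4 of the 6 were higher in MT and none was lower, and 1 was called, Tpm2. Of the 22 genes fixed as markers of myotubes, only Mylpf and Tpm2 were on the array, and both read higher in MT on both arrays in the title order. The MyoD-family genes Myod1 and Myog, the satellite cell factor Pax7, and Acta1, Ckm and Des were not on it. On these arrays MT could thus be checked by only 2 markers, whose direction depends on the reading of the dyes.

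Tpm2, which encodes the beta-tropomyosin that lies along the actin filament and gates the access of myosin, was called higher in MT. Its intensity was 573660 in MT and 53516 in MB on array 1, and 137180 in MT and 34230 in MB on array 2. MT exceeded MB on both arrays, each with a single mean value per channel, and both channels were above their limits. The log2 ratio was 3.42 on array 1 and 2.00 on array 2, a mean of 2.71 (SE 0.41, 6.55-fold, adjusted p = 0.0279). A second clone of Tpm2 read 2.09 and 1.47 (adjusted p = 0.0780). The call of the first clone held in 9 of 20 alternative settings and was lost in 11, with ratios from 2.00 to 3.42. One of these left out a run of neighbouring spots, described below, and gave an adjusted p of 0.0435. By the labelled dyes, the mean was -0.71 (SE 0.99), as array 1 then reads the opposite way.

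Mylpf, the regulatory light chain of fast skeletal myosin, gave the largest ratio among the contractile genes measured. Its intensity was 660210 in MT and 25746 in MB on array 1, and 79883 in MT and 12 in MB on array 2, where 1 spot was measured. The array 1 ratio was 4.68. The array 2 ratio of 12.70 rests on an MB signal far below the detection limit, and with MB set at that limit the ratio would be at least 5.23. The mean of 8.69 (SE 1.52, adjusted p = 0.0519) missed the threshold, and it was called in 3 of 19 alternatives. By the labelled dyes the mean was 4.01 (SE 3.21). Actn3, the alpha-actinin of fast fibres, read 1.32 and 1.05, and Cryab, a small heat shock protein of the Z-disc, read 1.17 and 2.61, neither called (adjusted p = 0.375 and 0.290). Titin (Ttn) at -0.61 and 0.27 and Tpm1 at 0.83 and -0.69 lay on opposite sides of 0 on the 2 arrays.

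The promoters of the 2 myotube markers are shown with those of Tagln2 and Anxa2, a pair of genes called lower in MT, because the E-box is the site at which MyoD-family factors bind. The sequences are RefSeq's for mouse build GRCm38.p6, each 250 bases before to 50 bases after a start of the gene, read 5′ to 3′ on the gene's strand. Tagln2 encodes an actin-bundling calponin-family protein and Anxa2 a calcium-dependent membrane-binding annexin. The windows are chr7:127211358-127211657 on the plus strand for Mylpf, chr4:43523505-43523804 on the minus strand for Tpm2, chr1:172499996-172500295 on the plus strand for Tagln2 and chr9:69453433-69453732 on the plus strand for Anxa2. Capitals mark every match of the E-box CANNTG or of its form CAGCTG, which every CAGCTG also matches, and of the CArG box that serum response factor binds. All of these motifs read the same on both strands.
Mylpf: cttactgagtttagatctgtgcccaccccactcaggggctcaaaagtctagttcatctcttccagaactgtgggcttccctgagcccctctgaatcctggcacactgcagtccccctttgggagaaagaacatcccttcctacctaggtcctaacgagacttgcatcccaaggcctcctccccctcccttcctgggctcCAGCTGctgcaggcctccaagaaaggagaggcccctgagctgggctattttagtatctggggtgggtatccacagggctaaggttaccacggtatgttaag
Tpm2: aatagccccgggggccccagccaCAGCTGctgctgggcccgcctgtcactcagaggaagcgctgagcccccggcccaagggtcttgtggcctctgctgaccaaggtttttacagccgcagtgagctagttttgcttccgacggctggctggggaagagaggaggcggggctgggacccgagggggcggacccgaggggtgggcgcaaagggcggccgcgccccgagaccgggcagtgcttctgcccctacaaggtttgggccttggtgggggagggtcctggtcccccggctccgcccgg
Tagln2: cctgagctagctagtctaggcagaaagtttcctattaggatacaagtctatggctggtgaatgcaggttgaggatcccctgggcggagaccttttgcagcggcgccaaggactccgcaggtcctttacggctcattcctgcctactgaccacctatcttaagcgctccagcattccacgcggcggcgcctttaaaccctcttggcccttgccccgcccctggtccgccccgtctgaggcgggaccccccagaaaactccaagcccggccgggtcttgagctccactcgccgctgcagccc
Anxa2: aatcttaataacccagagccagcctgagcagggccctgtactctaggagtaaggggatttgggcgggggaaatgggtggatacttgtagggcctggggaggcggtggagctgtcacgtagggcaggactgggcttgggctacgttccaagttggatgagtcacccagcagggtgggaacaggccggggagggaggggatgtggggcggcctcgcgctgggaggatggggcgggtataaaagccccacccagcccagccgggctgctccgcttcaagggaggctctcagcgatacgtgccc
Mylpf and Tpm2 held 1 match each, both CAGCTG, which began 51 bases before the start in Mylpf and 227 bases before it in Tpm2. Tagln2 and Anxa2 held none of these motifs. Among the 32851 windows of this length, 72.3% held a CANNTG, 16.3% a CAGCTG and 1.63% a CArG box, so a match of CANNTG is common. A match is a description of the letters and not a measured site.

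**Figure D2:**
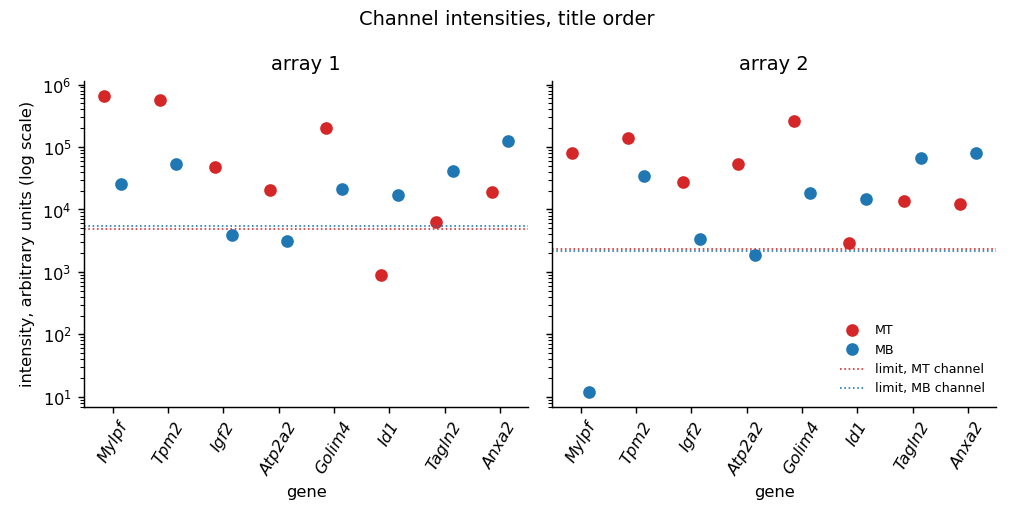
Mean spot intensity (log axis, arbitrary units) of 8 genes in MT (red, left) and MB (blue, right) on array 1 and array 2 in the title order, with the detection limit of each channel as a dotted line. Mylpf, Tpm2, Igf2, Atp2a2 and Golim4 lie higher in MT and Id1, Tagln2 and Anxa2 lower in MT on both arrays, and the MB signal of Mylpf on array 2 is 12.

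Genes of calcium handling and energy supply were mixed. Of 7 measured of 36 listed, 2 read past 1.6-fold higher and 1 past 1.6-fold lower in MT on both arrays, and none was called, with a median log2 ratio of 0.70 that was 0.07 on array 1 and 0.71 on array 2. Atp2a2, the calcium pump of the sarcoplasmic reticulum in slow and cardiac muscle, had intensities of 20721 in MT and 3137 in MB on array 1, and 53390 in MT and 1852 in MB on array 2. MB was below the limit of its channel on both arrays, so MT was at least 9.85-fold higher in the mean of the arrays (fitted log2 ratio 3.79, SE 0.59, adjusted p = 0.0686). The bound in log2 was 1.95 on array 1 and 4.65 on array 2. This bound and those in fold below are for the mean log2 ratio of the 2 arrays, and a single array can give a lower one. Ckb, the brain form of creatine kinase, read 1.32 and 0.71, and Calm2, a calmodulin gene, read -0.77 and -0.96.

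Of 10 genes for the muscle membrane, fusion and the acetylcholine receptor, 3 read past 1.6-fold higher and 1 past 1.6-fold lower in MT on both arrays, with a median of 0.28. Sgce, the epsilon-sarcoglycan, read 0.81 and 1.49 (adjusted p = 0.499). Itgb1, the beta1 integrin chain, read -1.10 and -0.71.

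Among genes of the insulin-like growth factor axis, which promotes muscle differentiation, 3 of 9 measured read past 1.6-fold higher in MT on both arrays and none past 1.6-fold lower, with a median of 0.20. Igf2, a growth factor that myoblasts secrete as they differentiate, had intensities of 47984 in MT and 3859 in MB on array 1, and 27394 in MT and 3344 in MB on array 2. MT exceeded MB on both arrays, with MB below the limit on array 1. Its log2 ratios were 3.72 and 3.04, a mean of 3.38 (SE 0.58) with an adjusted p of 0.065, and it passed the threshold in 3 of 19 alternatives. Igfbp5, an IGF-binding protein, read 1.23 and 1.36, and Akt2, a kinase downstream of the receptor, 2.48 and 1.09. Igf2r, which clears IGF2, read 0.44 and 0.39, and the imprinted non-coding H19 gene -0.04 and 0.39.

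Regulators of the muscle program were few on this array. Of 32 myogenic transcription factors and partners, 7 were measured, of which 1 read past 1.6-fold higher and 3 past 1.6-fold lower in MT on both arrays, none of them called. Id1, the inhibitor that binds E proteins, had an intensity of 899 in MT and 17075 in MB on array 1, and 2892 in MT and 14614 in MB on array 2. MT was below the limit of its channel on array 1 only. The 2 spots of Id1 on that array differed by 2.83 in log2 ratio. The log2 ratios were -5.03 and -2.34, a mean of -3.68 (SE 0.59) with an adjusted p of 0.043, just outside the threshold, and it passed in 3 of 19 alternatives. Tcf3, the gene of the E proteins E12 and E47, read -0.91 and -1.37, and Carm1, an arginine methyltransferase that coactivates MEF2, read -0.72 and -1.44. Mef2a read 0.70 and 1.25 (adjusted p = 0.693), with MB below its limit on array 1.

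**Figure D3:**
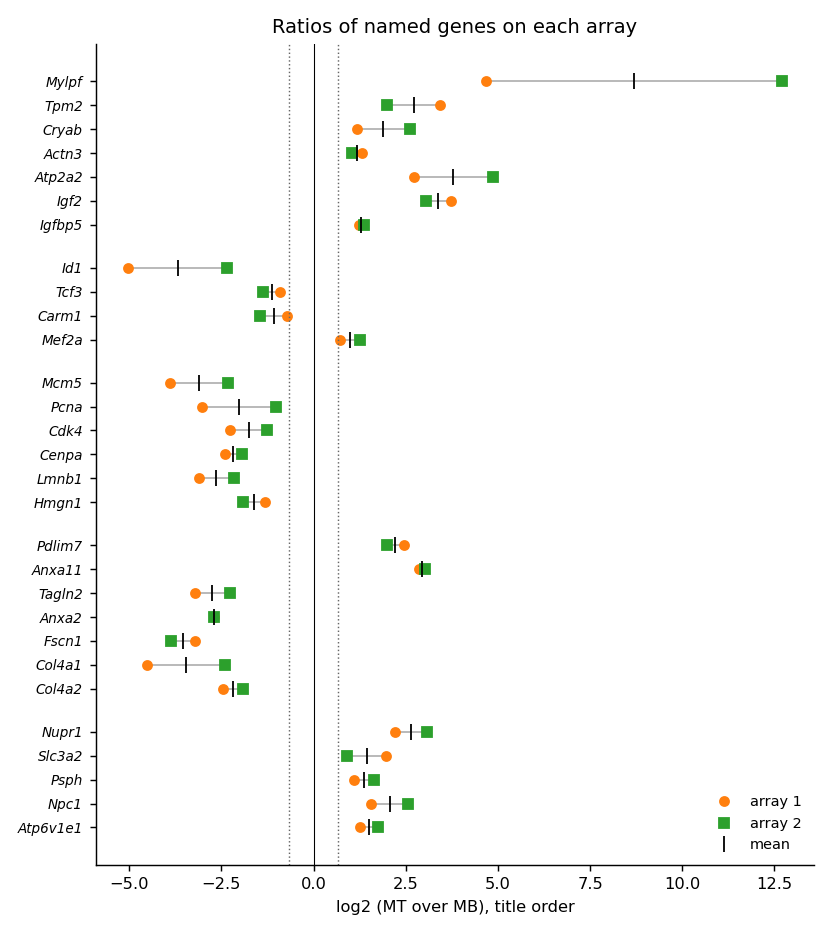
Log2 ratio of MT over MB in the title order (x axis) for named genes on array 1 (circles) and array 2 (squares), with the mean as a bar and 1.6-fold as dotted lines. Mylpf reaches 12.70 on array 2, and Id1, Mcm5, Fscn1 and Col4a1 lie below -2 on both arrays.

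Genes of DNA replication and mitosis lay lower in MT as a list, but none was called. Of 22 measured genes of DNA replication, none lay above 0 on both arrays and 14 lay below it, with 6 past 1.6-fold lower and a median of -0.62. Of 38 genes of mitosis, 24 lay below 0 and 4 above it on both arrays, with 10 past 1.6-fold lower, none past 1.6-fold higher and a median of -0.55. The share of all genes past 1.6-fold lower was 7.65%, as given above. Mcm5, a subunit of the replicative helicase, had intensities of 885 in MT and 13268 in MB on array 1 and of 3447 in MT and 17184 in MB on array 2, log2 ratios of -3.91 and -2.33 (adjusted p = 0.413). Pcna, the sliding clamp of the replication fork, had 1564 in MT and 12680 in MB on array 1 and 7750 in MT and 15567 in MB on array 2, log2 ratios of -3.03 and -1.03 (adjusted p = 0.273). In both genes MT was under the limit on array 1, so the ratio of that array can be off in size. Rfc3, of the clamp loader, was below the limit in MT on both arrays and at least 1.84-fold lower there (adjusted p = 0.181), and Timeless, of the fork protection complex, read -1.54 and -2.66.

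Cenpa, the centromeric histone H3 variant, read -2.40 and -1.95 (mean -2.17, SE 0.42, adjusted p = 0.104), with MT below the limit on array 1. Lmnb1, the B-type lamin of the nuclear envelope, read -3.10 and -2.17 with MT below the limit on both arrays, so it was at least 1.55-fold lower (adjusted p = 0.074). The mitotic kinase gene Cdk1 read -1.57 and -0.85. Of 8 measured markers of proliferating myoblasts, 6 lay below 0 on both arrays and 1 above it, Ccna2, the cyclin of S phase, at 2.32 and 0.05. The duplicate spots of Ccna2 differed by 2.75 in log2 ratio on array 1 and by 1.65 on array 2. Chromatin proteins of dividing cells had a median of -0.64, with 13 of 16 genes below 0 on both arrays and 4 past 1.6-fold lower. Hmgn1, a nucleosome-binding protein, read -1.33 and -1.92, and Npm1, nucleophosmin of the nucleolus, -1.37 and -1.51.

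G1 regulators were split. Cdk4, the kinase partner of D cyclins, read -2.26 and -1.25 (mean -1.76, SE 0.47, adjusted p = 0.159), and Tfdp1, the partner of E2F, read -0.68 and -1.31, while Ccnd3, the D cyclin kept in differentiated muscle, read 1.45 and 0.56 and Cdk2 1.46 and 0.19. Ccnd1 was on the array but was not tested, and Cdkn1a, the p21 inhibitor, was not on it. The retinoblastoma gene Rb1 read -0.31 and 0.04. Gas1, a growth-arrest gene of the cell surface, had 136 in MT and 19327 in MB on array 1, and 3405 in MT and 14367 in MB on array 2. Its log2 ratios of -7.15 and -2.10 differ with the depth of the MT signal below its limit on array 1, and the mean of -4.62 (SE 1.05) had an adjusted p of 0.107.

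The non-muscle actin cytoskeleton and annexins formed the list with the most calls. Of 58 measured genes, 40 lay below 0 and 7 above it on both arrays, 20 read past 1.6-fold lower and 2 past 1.6-fold higher in MT, and the median was -0.70 (-0.50 on array 1 and -0.79 on array 2). The limma test called 2 of them lower, Tagln2 and Anxa2, and 1 higher, Pdlim7. Over all genes, 0.323% were called lower and 0.161% higher.

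Tagln2 had an intensity of 6376 in MT and 40840 in MB on array 1, and 13726 in MT and 66372 in MB on array 2. MB exceeded MT on both arrays by a wide margin. The log2 ratios were -3.22 and -2.27, a mean of -2.75 (SE 0.42, adjusted p = 0.0367). The 2 spots of Tagln2 on array 1 differed by 2.08 in log2 ratio. Anxa2 had 19409 in MT and 125080 in MB on array 1, and 12412 in MT and 80664 in MB on array 2. Its ratios of -2.70 on both arrays were the closest pair among the called genes outside the run of spots described below, a mean of -2.70 (SE 0.43, adjusted p = 0.0358). Each of these calls held in 9 of 20 alternatives, with ratios from -3.32 to -2.23 for Tagln2 and from -3.23 to -2.59 for Anxa2. Pdlim7, a PDZ and LIM protein of actin filaments and the Z-disc, had 224800 in MT and 41135 in MB on array 1, and 46082 in MT and 11686 in MB on array 2, log2 ratios of 2.45 and 1.98 (SE 0.35, adjusted p = 0.0345), and its call held in 10 of 20. With the run of neighbouring spots left out, the adjusted p was 0.0547 for Tagln2 and Anxa2 and 0.0521 for Pdlim7, so none of the 3 was called, with the same ratios. By the labelled dyes, the means were 0.47 (SE 1.08) for Tagln2, 0.00 (SE 1.03) for Anxa2 and -0.23 (SE 0.84) for Pdlim7.

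Other members were large but not called. Fscn1, the actin bundler of filopodia, read -3.22 and -3.86 (adjusted p = 0.0865), with MT below the limit on array 1. Lasp1, a LIM and SH3 protein of focal adhesions, read -3.98 and -2.16 (adjusted p = 0.0558), but the mean over its clones, which were not all measured on both arrays, was 1.13. Anxa11, another annexin, read 2.86 and 3.01 (adjusted p = 0.130), against the direction of Anxa2. Of 15 tubulins and microtubule proteins, none passed 1.6-fold on both arrays.

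The extracellular matrix list had 21 of 31 measured genes below 0 and 3 above it on both arrays, 6 past 1.6-fold lower and 2 past 1.6-fold higher, and a median of -0.45. The genes of the 2 main chains of basement membrane collagen, Col4a1 and Col4a2, are neighbours in the genome and share a promoter region. Col4a1 read -4.52 and -2.40 (adjusted p = 0.0773) with MT below the limit on array 1, while its second clone read -1.80 and 3.12. Col4a2 had 3299 in MT and 18021 in MB on array 1 and 1766 in MT and 6639 in MB on array 2, with MT under the limit on both, so it was at least 3.25-fold lower in MT (adjusted p = 0.0505). Nid1, the nidogen that links collagen IV to laminin, read at least 1.27-fold lower with MT below the limit on both arrays (adjusted p = 0.258). The fibroblast markers were small in mean or split, with Col3a1 at -0.17 and -0.41, Col1a1 at 1.06 and -0.52 and Col1a2 at -1.51 and 0.02.

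The list of serine, glycine and ATF4 targets, genes switched on by the transcription factor ATF4 under amino acid or endoplasmic reticulum stress, had 13 of 18 measured genes above 0 on both arrays and none below, 7 past 1.6-fold higher and a median of 0.77. Nupr1, a stress-induced chromatin protein, had 26688 in MT and 5727 in MB on array 1 and 28460 in MT and 3387 in MB on array 2, log2 ratios of 2.22 and 3.07 (SE 0.51, adjusted p = 0.0738). Slc3a2, the heavy chain of amino acid transporters, read 1.98 and 0.92, Psph, the last enzyme of serine synthesis, 1.10 and 1.64, and Atf4 itself 0.89 and 0.73. No gene of this list was called.

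Lysosome and autophagy genes had a median of 0.29, with 18 of 30 above 0 on both arrays and 6 past 1.6-fold higher, against 1 past 1.6-fold lower. Npc1, the cholesterol exporter of the lysosome, read 1.56 and 2.56, and Atp6v1e1, a subunit of its proton pump, 1.27 and 1.75. Of 50 genes of the respiratory chain and ATP synthase, 28 lay above 0 and 3 below it on both arrays, 7 read past 1.6-fold higher and 1 past 1.6-fold lower, and the median was 0.36. Ndufs4, of complex I, read 1.16 and 1.24, and Uqcrb, of complex III, 0.77 and 1.36. The one called member, Cox6a1 of complex IV, was lower in MT and belongs to the run of spots described next. The Wnt pathway had a median of -0.11, with 2 of 20 genes past 1.6-fold lower and none past 1.6-fold higher. The genes past 1.6-fold lower were beta-catenin (Ctnnb1) at -2.25 and -1.43 (adjusted p = 0.149) and the secreted Dkk3 at -0.94 and -1.30. Ctnnb1 was measured by 1 spot on array 1, with MT below the limit there, and Dkk3 by 1 spot on each array. Dkk3 is a clone of that run, and without the run the median of the list was -0.01.

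**Figure D4:**
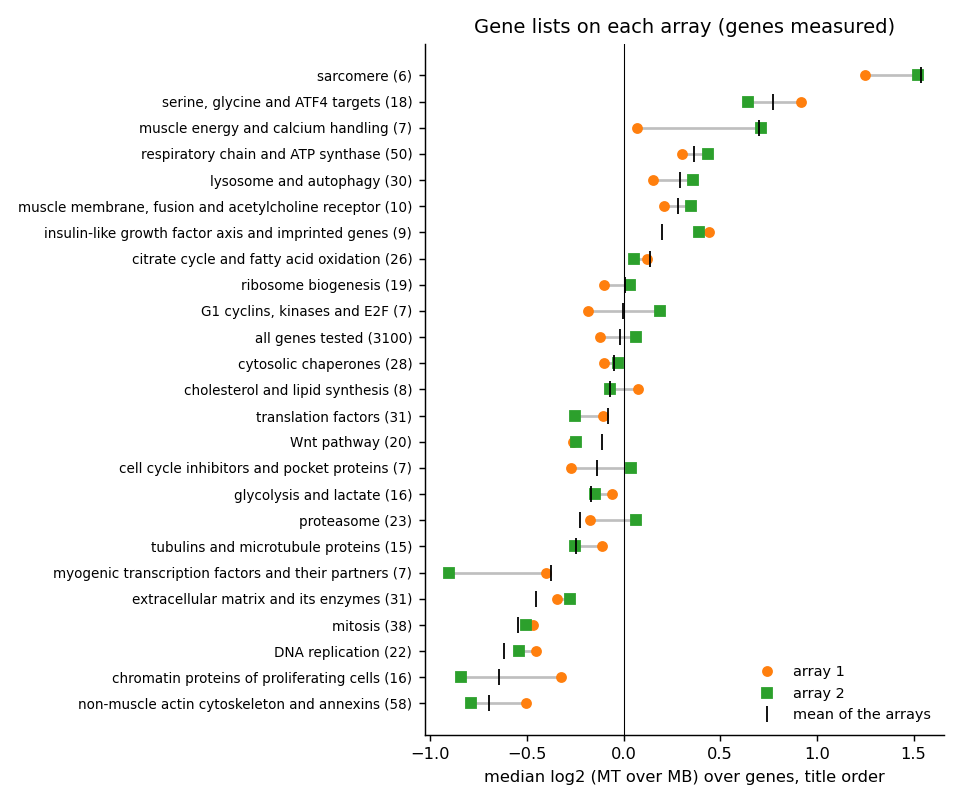
Median log2 ratio of MT over MB in the title order (x axis) over the measured genes of each list (number in brackets) on array 1 (circles), array 2 (squares) and for the mean of the arrays (bars). The sarcomere list lies at 1.54 and the non-muscle actin list at -0.70, with all 3100 genes at -0.02.

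Of the 33 called clones, 12 came from 1 small area of the print. On the MT over MB arrays, spots 19163 to 19474 of the file order, 12 consecutive windows of 26 spots, had a median absolute log2 ratio above 1 on both arrays, while no other such run was longer than 2 windows. This run was found after the ratios had been seen. Its spots had a median absolute log2 ratio of 2.09 on array 1 and 2.45 on array 2, against 0.40 and 0.46 for the spots outside it. The same clones had medians between 0.30 and 0.85 on the other 7 arrays. Of 51 clones of the run that were tested, 49 lay on the same side of 0 on both arrays in the title order, 19 were past 1.6-fold higher and 19 past 1.6-fold lower, and 12 were called, 1 higher and 11 lower.

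**Figure D5:**
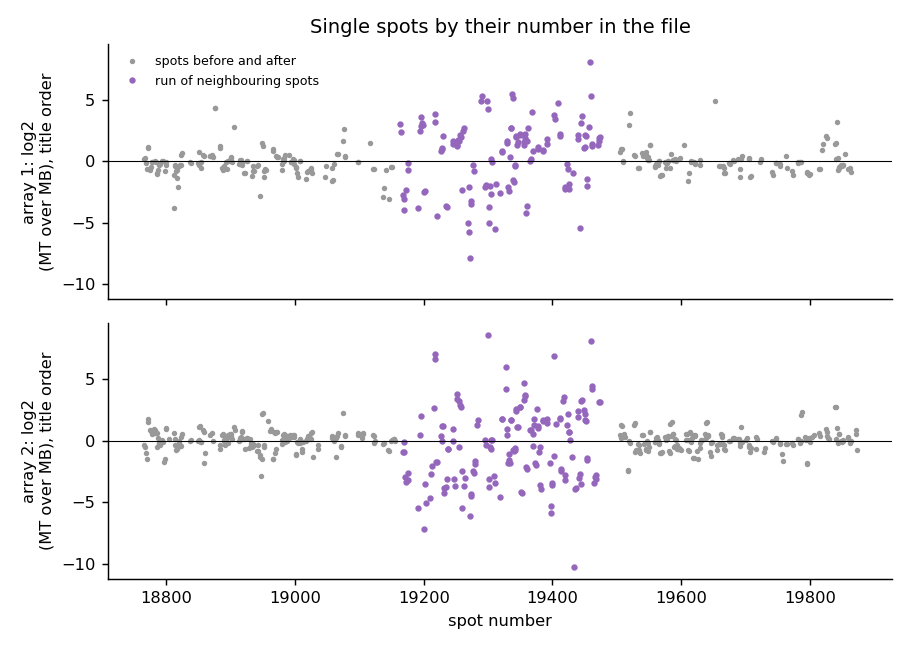
Log2 ratio of MT over MB in the title order (y axis) of single spots above the detection limit by spot number in the file (x axis), around the run, on array 1 (top) and array 2 (bottom). Spots 19163 to 19474 (purple) spread to both sides of 0 with a median absolute log2 ratio of 2.09 and 2.45, while the spots before and after (grey) lie closer to 0.

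Among the 8 named clones of the run that were called lower were Reep3, an endoplasmic reticulum shaping protein, at least 3.37-fold lower, and Dtl, the substrate receptor of a replication-coupled ubiquitin ligase, at least 2.21-fold lower. Cox6a1, measured by 1 spot on each array, had intensities of 2968 in MT and 40383 in MB on array 1 and of 1002 in MT and 43157 in MB on array 2, so it was at least 12.4-fold lower in MT (adjusted p = 0.00654). The other 5 were Macroh2a3 (at least 5.99-fold lower), and, by their mean log2 ratios, Tomm5 of the mitochondrial import pore (-3.09), the syntaxin Stx1b1 (-2.75), the zinc transporter Slc39a7 (-2.57) and 1 of the 4 measured clones of Cox4i1, another complex IV subunit (-3.57). The other 3 clones of Cox4i1, printed elsewhere, read 0.05, 0.62 and 0.62. The 11 clones called lower in the run had ratios of -0.79 to 0.98 for G0 MB over MB and of -0.74 to 0.72 for G0 MB over MT in the title order. The part of the print position in these ratios was not tested. With all clones of the run left out of the fit, 9 clones were called higher and 3 lower of 5322, all of which were also called with them in, and no member of the gene lists was called.

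Outside the run, 15 clones were called higher and 6 lower. The clones called higher had title-order log2 ratios of 2.22 to 8.95 for MT over MB, -0.24 to 4.75 for G0 MB over MB (13 clones) and -3.38 to -0.78 for G0 MB over MT. The 6 called lower had -3.81 to -2.70 for MT over MB, -2.92 to -0.36 for G0 MB over MB and 0.02 to 1.69 for G0 MB over MT (5 clones). By the labelled dyes, both G0 MB over MT arrays read the opposite way. All ratios given here for that comparison would then change sign and keep their size, while those of G0 MB over MB would stay. The comparisons share cell states, and their readings of the dyes were set in the same way, so these values stand side by side without a test.

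Of the clones called higher, 8 had a fitted mean log2 ratio over 5, of which 7 have no gene symbol in the files and 4 come from 1 clone plate. In all 8, MB was below the limit on both arrays, so MT was at least 14.6-fold to at least 171-fold higher. MT was at least 171-fold higher for clone H3126B09 and at least 138-fold higher for clone H3073B09 (adjusted p = 0.000517 for both). The 2 spots of H3126B09 on array 2 differed by 3.33 in log2 ratio. The clone with a symbol, A830008O07, a hypothetical protein, had 188880 in MT and 4001 in MB on array 1 and 395140 in MT and 1523 in MB on array 2, so MT was at least 80.9-fold higher (adjusted p = 0.00312). These 8 clones had title-order ratios of 2.65 to 4.75 for G0 MB over MB and of -3.38 to -2.20 for G0 MB over MT. The 4 clones of 1 plate were H3073B08, H3073B09, H3073C09 and H3073D08. Other called clones without a symbol also had neighbouring names, H3054D09 with H3054D10 and H3118B01 with H3118B02. Whether such clones hold separate genes was not tested.

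Among named genes called higher, Golim4, a Golgi membrane protein that cycles to endosomes, had 201120 in MT and 21368 in MB on array 1 and 264680 in MT and 18166 in MB on array 2. All of these signals were above their limits. Its log2 ratios were 3.21 and 3.86, a mean of 3.54 (SE 0.46, 11.6-fold, adjusted p = 0.00977), and the call held in 16 of 20 alternatives. Aass, the enzyme that starts lysine breakdown in mitochondria, read 2.49 and 2.75 (adjusted p = 0.0394) and was called in 7 of 20, but not without the run of neighbouring spots (adjusted p = 0.0606), where Golim4 stayed at 0.0159. The 2 spots of Aass on array 2 differed by 2.22 in log2 ratio. For Gpcpd1, a glycerophosphocholine phosphodiesterase, the called clone was at least 3.50-fold higher with MB below the limit on both arrays, and a brighter clone read -0.30 and 0.53. Among genes called lower, Ssr1, of the translocon-associated complex, read -2.83 and -3.66 (adjusted p = 0.0366) with MT below the limit on both arrays, at least 1.91-fold lower, and at 0.0547 without that run. Ssr1 had 1 spot on array 1, and its 2 spots on array 2 differed by 4.23 in log2 ratio. Ptma, prothymosin alpha, had 1 clone at -4.61 and -3.01 and a brighter clone at -0.33 and -0.72. Among the few genes whose clones are given singly here, clones of 1 gene thus disagreed in Cox4i1, Ptma, Gpcpd1 and Col4a1. Other genes with more than 1 clone were not compared in this way. Tomm5 and Npc1 are among these. Over the alternatives, which include the mean over clones, Tomm5 ranged from -3.95 to -1.56 and Npc1 from 1.07 to 2.56.

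Some genes disagreed between the arrays in the title order. Tapbp, the tapasin of antigen loading, read 4.93 on array 1 and -0.30 on array 2, Gar1, of the H/ACA snoRNP, 3.65 and -1.69, Ptpa, a phosphatase 2A activator, -0.31 and 5.83, Tmx4, a thioredoxin-like membrane protein, -0.10 and 4.46, and BC035044 -4.65 and 0.42. In Tapbp, Ptpa, Tmx4 and BC035044 the weaker channel was below its limit on 1 array, the array with the large ratio. Markers of other cell types gave little. Of 6 reserve or satellite cell markers, 2 were measured, Ly6a at -0.86 and -0.44 and Sdc4 at 0.38 and -0.21. Of 5 smooth muscle markers 3 were measured, Cnn1 at -0.40 and -0.63, Smtn at -0.18 and -0.06 and Tagln at -0.05 and 0.66. No marker of osteoblasts, adipocytes or chondrocytes was measured.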

How the data were processed

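RNA of MT and MB was labelled with Cy3 or Cy5 and hybridized together to NIA15K spotted mouse cDNA arrays. Per the methods, the authors quantified spots with ArrayVision, subtracted background and normalized the Cy3 and Cy5 intensities by LOWESS within each array before deposit. The deposited log2 values and linear ratios are those of these 2 intensities, and the authors' series table also gives log2 ratios, its columns for the 2 MT over MB replicates holding each other's arrays. Background subtraction leaves weak channels near 0, where a ratio can be far too large. Genome build and software versions are not given in the sources used here.

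Log2 Cy5 over Cy3 was recomputed per spot, control spots were left out, spots with detection flag 1 were kept and duplicates averaged. Printed intensities are means over the same spots, so their ratio can differ from the mean log2 ratio where duplicates disagree. Limma 3.58.1 in R 4.3.3 (lmFit, eBayes) was run on all 9 arrays with 1 coefficient for each comparison, over clones with at least 2 residual degrees of freedom and values on both MT over MB arrays, with Benjamini-Hochberg adjustment over all 5373. Calls needed an adjusted p under 0.04 and a ratio past 1.6-fold (log2 0.67), the thresholds of the methods for SAM. The script was tested on simulated data. A clone whose weaker channel was under the limit on both arrays is given as a bound, with the weak channel set to the limit and the log2 bounds of the 2 arrays averaged. Number of arrays limits the precision.

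Symbols were updated through RefSeq (GRCm38.p6): 6974 clones kept their symbol, 3694 were renamed, 472 kept a name that RefSeq does not hold and 4159 had none. The brightest clone stands for a gene that has several. Named were every called gene, up to 4 genes per list with the largest mean ratio among those on the same side on both arrays (with the disagreeing members of small lists), a fixed set of muscle and cell cycle genes, and the 5 genes on which the arrays disagreed most. Further genes named beside these were chosen after their values were seen. Members and lists were chosen with earlier results of these data known. The alternatives covered the reading of the dyes, detection, normalization, covariates, call rule, test, clones of a gene and each array in turn. The labels' treatment field speaks of replated cells, unlike the titles, which were followed. One result that the rule for named genes would give is not reported here.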

Additional observations from a re-analysis of the deposited data

Results flagged for a closer look

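Arabidopsis control spots, printed to carry no mouse sequence, were above the detection limit in 181 of 480 cases on array 1 and 42 of 480 on array 2, which is 37.7% and 8.75%, where a count of 0 would allow up to 0.625%. They are a signal outside the clones compared in the report. Buffer spots were above it in 23 of 226 and 12 of 226.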

How the results depend on the processing

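By the labelled dyes, no clone was called under another detection rule, centring, scaling, loess, mean over clones, a fit to the 2 arrays alone, a dye term, a replicate block (0 higher and 0 lower), adjusted p alone, or without the run of neighbouring spots, which was chosen after seeing the data. SAM over single spots, which takes duplicate spots of 1 array as replicates, called 0 higher and 1 lower. On both arrays, 38 clones were past 1.6-fold higher and 67 past 1.6-fold lower. Turning array 1 gave 16 higher and 17 lower, and turning array 2 gave 17 and 16. Leaving out single arrays gave 0 to 22 higher and 0 to 15 lower, with 22 and 15 without array 1, 11 and 12 without array 2 and 0 without each of the other 7. The authors' table carries only the title order and was not run for the labelled dyes.

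In the title order, 34 higher and 36 lower clones were called above the limit in both channels, 11 and 9 without a detection filter and with the authors' table, 72 and 89 with scaled arrays, 4 and 1 in the fit to 2 arrays alone, 7 and 5 with the replicate block, 9 and 3 without the run of neighbouring spots, 347 and 423 past 1.6-fold on both arrays with no test, and 521 and 679 by SAM. Of the calls above the limit in both channels, 7 higher and 8 lower were also called in the report. Leaving out single arrays gave 9 to 25 higher and 10 to 27 lower. The counts were 22 and 15 without array 1 of MT over MB, of which 8 and 2 were called in the report, 12 and 11 without array 2, of which 8 and 5 were, 14 and 11, 10 and 11, and 25 and 27 without G0 MB over MB array 1, 2 and 3, and 9 and 10 without either array of G0 MB over G0 FB. Whether same-numbered arrays share more than a number is not known. Deviations from group means correlated at 0.30 with G0 MB over MT and at -0.44 with G0 MB over G0 FB. With G0 MB over MB they correlated at -0.02 for replicate 1 and -0.14 for replicate 2. In a group of 2 arrays the deviation of 1 array is minus that of the other, so these values cannot decide on the pairing. Among list members, 5 were called, against 11 above the limit in both channels, 29 with scaled arrays, 9 with a dye term, 1 with the replicate block, without a filter or with the authors' table and 0 in the fit to 2 arrays or without the run of neighbouring spots, and 1 to 8 when single arrays were left out (1 without either G0 MB over G0 FB array or G0 MB over MB array 2, 2 without MT over MB array 2 or G0 MB over MB array 1, 3 without MT over MB array 1, 8 without G0 MB over MB array 3). The correlation of the arrays by the labelled dyes was -0.21 without a filter and with the authors' table, -0.42 after loess, -0.40 by rank and -0.45 without the run.

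For 81 named genes, 1533 values under alternatives were computed, of which 1372 kept direction and side of the threshold, 129 lost and 31 gained the call, and 1 turned sign (Lasp1, mean over clones, 1.13). List medians of the myogenic factors (up to 0.04 with the mean over clones) and of muscle energy and calcium handling (-0.08 without array 2) changed sign in 1 alternative each, as did those of the cell cycle inhibitors and the proteasome. Those of the G1 regulators changed sign in 5, ribosome biogenesis in 3, and glycolysis and cholesterol synthesis in 2 each. The cause of these shifts was not tested. With 2 arrays, ratios of clones with a channel under the limit are uncertain in size.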
